A study of Arabidopsis thaliana with 12 samples.

Results

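In root explants of Arabidopsis thaliana, 80 genes had higher transcript levels with cytokinin than without it in wild type, and lower levels with cytokinin than without it in explants labelled CPL4RNAi. They were picked from 33557 annotated features by the FPKM (fragments scaled by transcript length and by library size) of each group. A gene had to reach at least 1.5 times its level without cytokinin in wild type and at most 0.75 times that level in CPL4RNAi. It also needed an FPKM of 1 or more in wild type with cytokinin and in CPL4RNAi without it, and a level above 0 in wild type without cytokinin. The level part was met by 17700 features. Of these, 666 (3.76%) met the wild-type ratio, 1435 (8.11%) met the CPL4RNAi ratio and 92 (0.52%) met both. The 92 included 12 well-known xylem, laccase and VND genes that were set aside by name. With the same limits turned round, 8 genes were lower with cytokinin in wild type and higher in CPL4RNAi. Because the values of all 4 groups chose the 80 genes, the differences between groups given below describe what was chosen, and nothing is inferred from their size or direction.

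The study asked how CPL4, a phosphatase of the RNA polymerase II tail, affects shoot formation from roots. The 12 stranded, ribosomal RNA-depleted libraries of total RNA fall into 4 groups of 3. CPL4RNAi(+) and CPL4RNAi(-) are explants of the CPL4RNAi line on shoot-inducing medium with and without cytokinin, and WT(+) and WT(-) are wild-type explants (Col-0 gl1) on the same media. All roots came from seedlings cut at 10 days, had 5 days on callus-inducing medium and then 72 hours on shoot-inducing medium, and were 18 days old. The (+) medium held 0.05 mg/L of the cytokinin 2iP (isopentenyladenine), and the (-) medium held 0 mg/L. The genotype field of the CPL4RNAi samples reads CPL4 KO, and the promoter of the construct and the number of lines are not given in the sources used here. The deposited table holds 1 FPKM per gene and group, with no value per library, so depth and the observed spread of replicates are unknown here. Each standard error (SE) below is the one that the p-value in the authors' deposited table implies, and it is given as "at most" where that p-value stands at its floor of 5e-05. CPL4 itself went against its label. It stood at 32.2 FPKM in CPL4RNAi(+) and 36.3 in CPL4RNAi(-), against 13.9 in WT(+) and 14.5 in WT(-). Whether the labels were exchanged, or the construct added reads to this gene, was not tested. CPL4RNAi and wild type below therefore mean the groups labelled so, and an exchange would give every effect to the other genotype.

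Xylem vessel elements build a thick secondary wall inside the primary wall and then die. That wall is made of cellulose, of xylan that carries glucuronic acid and acetyl groups, and of lignin. NAC transcription factors of the VND family start the programme, MYB factors such as MYB46 and MYB83 carry it on, and cellulose synthases, xylan enzymes, laccases and xylem cysteine peptidases are among its outputs. Cytokinin acts with auxin in vascular patterning, in callus and in shoot formation. In RNA from whole explants, fewer cells of a type and less RNA per cell cannot be told apart.

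By the rule only WT(-) or CPL4RNAi(+) can be the lowest group of a gene, and only CPL4RNAi(-) or WT(+) the highest. In most of the 80 genes the untreated wild type was lowest. WT(-) was the lowest group in 65 genes and CPL4RNAi(+) in the other 15. The highest group was CPL4RNAi(-) in 58 genes and WT(+) in 22. The order with WT(-) lowest and CPL4RNAi(-) highest was seen in 56 genes. The median FPKM of the 80 genes was 2.16 in CPL4RNAi(+), 3.67 in CPL4RNAi(-), 2.11 in WT(+) and 1.00 in WT(-), where all 17700 genes at the FPKM minimum had a median of 16.3 in CPL4RNAi(+), 16.3 in CPL4RNAi(-), 16.9 in WT(+) and 16.4 in WT(-). The genes are therefore mostly of low abundance. Of the 80, 28 reached 5 FPKM in a group, 52 did not, and 40 were under 1 FPKM in WT(-).

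**Figure D1:**
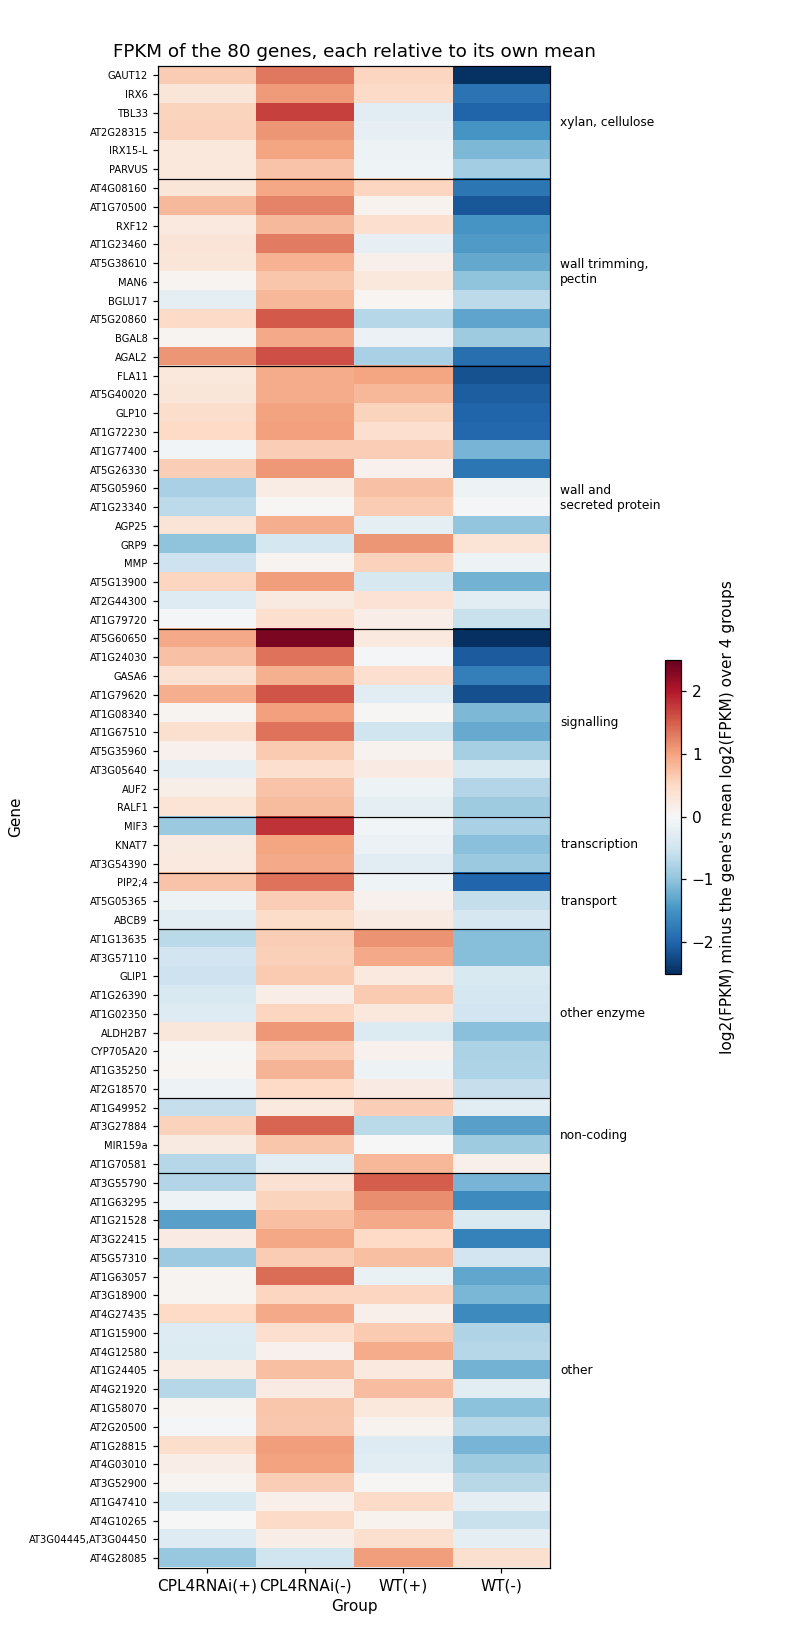
Levels of the 80 genes (rows, sorted by role) in CPL4RNAi(+), CPL4RNAi(-), WT(+) and WT(-) (columns), as log2(FPKM) minus the gene's own mean log2(FPKM) over the 4 groups. Red is above and blue below that mean, and the colours end at 2.5 in both directions. WT(-) is the lowest column in 65 genes and CPL4RNAi(-) the highest in 58.

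The cytokinin effect in CPL4RNAi had a median of -0.66 on the log2 scale over the 80 genes (-2.72 to -0.43), against 0.01 over all tested genes. In wild type the median was 0.95 (0.59 to 3.78), against 0.02. At a q-value of 0.05 or less in the authors' deposited table, 41 of 80 were called lower in CPL4RNAi, where 8.88% of all tested genes were, and 43 of 79 tested were called higher in wild type, where 6.58% were. Of the 80, 35 were called in both comparisons, 8 in wild type alone, 6 in CPL4RNAi alone and 31 in neither. Of all 18446 genes tested in both comparisons, 101 (0.548%) had a call in these same directions, lower in CPL4RNAi and higher in wild type. The rule used these same values, so the counts only reflect the size of each fold against its error. The median implied SE was 0.284 in CPL4RNAi and 0.476 in wild type, against 0.133 and 0.130 over all tested genes. Over tested genes whose highest group FPKM was 1 to 5, it was 0.275 in CPL4RNAi and 0.267 in wild type. Of the 31 genes called in neither comparison, 26 stayed under 5 FPKM in every group.

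**Figure D2:**
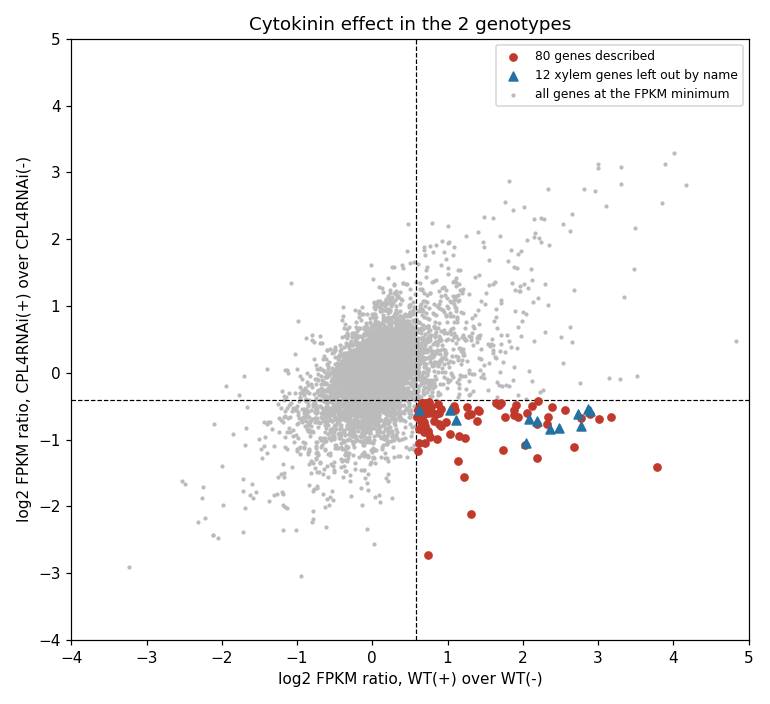
Log2 FPKM ratio of CPL4RNAi(+) over CPL4RNAi(-) (vertical axis) against that of WT(+) over WT(-) (horizontal axis) for the 80 genes (red), the 12 set aside by name (blue triangles) and all genes at the FPKM minimum with a level above 0 in CPL4RNAi(+) (grey). Dashed lines mark the ratios 0.75 and 1.5. The 80 genes fill the lower right corner that these lines cut out, from 0.59 to 3.78 along the horizontal axis and from -0.43 to -2.72 along the vertical one.

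The 6 members that make xylan or help to deposit cellulose shared 1 order, with WT(-) lowest and CPL4RNAi(-) highest in all 6. GAUT12 (AT5G54690, also IRX8), a glycosyltransferase needed for the reducing end of xylan, stood at 1.51 FPKM in CPL4RNAi(+), 2.44 in CPL4RNAi(-), 1.42 in WT(+) and 0.176 in WT(-). Its cytokinin effect was -0.69 in CPL4RNAi (SE 0.56) and 3.01 in wild type (SE 1.80), and neither was called. TBL33 (AT2G40320), which adds acetyl groups to xylan, was at 2.24 FPKM in CPL4RNAi(+), 4.96 in CPL4RNAi(-), 1.27 in WT(+) and 0.382 in WT(-), and was called in both genotypes, at -1.15 in CPL4RNAi (SE at most 0.28) and 1.73 in wild type (SE 0.48). IRX6 (AT5G15630, also COBL4), a COBRA-like protein held at the cell surface and linked to secondary wall cellulose, had 1.01 FPKM in CPL4RNAi(+), 1.71 in CPL4RNAi(-), 1.13 in WT(+) and 0.225 in WT(-). It too was called in both, at -0.76 in CPL4RNAi (SE 0.28) and 2.33 in wild type (SE 0.70).

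The other members of this group had smaller folds in wild type. IRX15-L (AT5G67210), of a family needed for normal xylan, had 3.46 FPKM in CPL4RNAi(+), 5.75 in CPL4RNAi(-), 2.63 in WT(+) and 1.33 in WT(-). PARVUS (AT1G19300), another enzyme of the xylan reducing end, had 1.85 FPKM in CPL4RNAi(+), 2.53 in CPL4RNAi(-), 1.44 in WT(+) and 0.852 in WT(-). Neither gene was called in a cytokinin comparison. AT2G28315, which RefSeq lists in a nucleotide sugar transporter family, had 3.05 FPKM in CPL4RNAi(+), 4.36 in CPL4RNAi(-), 1.76 in WT(+) and 0.736 in WT(-).

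Of 10 enzymes and inhibitors that act in cutting or trimming wall polysaccharides, 8 were called in both comparisons, against 35 of all 80 genes. All 10 were lowest in WT(-) and highest in CPL4RNAi(-). Members of this group had 1.49 to 15.95 FPKM in CPL4RNAi(-). AT1G23460, a pectin lyase-like protein, stood at 8.06 FPKM in CPL4RNAi(+), 15.95 in CPL4RNAi(-), 5.63 in WT(+) and 2.40 in WT(-), with effects of -0.98 (SE at most 0.24) in CPL4RNAi and 1.23 (SE at most 0.30) in wild type. AT1G70500, of the same superfamily, had 4.25 FPKM in CPL4RNAi(+), 5.72 in CPL4RNAi(-), 2.58 in WT(+) and 0.562 in WT(-). The fall in CPL4RNAi was the smaller of its effects, -0.43 (SE 0.17) against 2.197 in wild type (SE at most 0.54).

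Both xylanase-type glycosyl hydrolases of family 10 among the members had low levels and a steep wild-type ratio. AT4G08160 (ATXYN3) had 1.82 FPKM in CPL4RNAi(+), 2.89 in CPL4RNAi(-), 2.13 in WT(+) and 0.421 in WT(-), and RXF12 (AT1G58370, ATXYN1) had 1.31 FPKM in CPL4RNAi(+), 1.93 in CPL4RNAi(-), 1.48 in WT(+) and 0.400 in WT(-). The wild-type effect of AT4G08160 was 2.34 (SE at most 0.58) and that of RXF12 was 1.89, with an SE of at most 0.47. The pectin methylesterase inhibitor-like AT5G20860 had the opposite balance, with 7.34 FPKM in CPL4RNAi(+), 15.2 in CPL4RNAi(-), 3.21 in WT(+) and 2.097 in WT(-), and effects of -1.05 in CPL4RNAi (SE at most 0.26) and 0.61 in wild type (SE 0.22). AT5G38610, of the same superfamily, had 3.82 FPKM in CPL4RNAi(+), 5.62 in CPL4RNAi(-), 3.37 in WT(+) and 1.27 in WT(-) and was called in neither comparison.

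The glycosidases of this set act on galactose, glucose and mannose residues. AGAL2 (AT5G08370, an alpha-galactosidase) had 9.45 FPKM in CPL4RNAi(+), 13.4 in CPL4RNAi(-), 2.51 in WT(+) and 1.19 in WT(-), so that both CPL4RNAi groups stood above both wild-type groups. BGLU17 (AT2G44480, a beta-glucosidase) had 5.16 FPKM in CPL4RNAi(+), 10.7 in CPL4RNAi(-), 6.32 in WT(+) and 3.87 in WT(-), with effects of -1.06 in CPL4RNAi (SE at most 0.26) and 0.71 in wild type (SE at most 0.17). BGAL8 (AT2G28470, a beta-galactosidase) had 1.99 FPKM in CPL4RNAi(+), 3.71 in CPL4RNAi(-), 1.73 in WT(+) and 1.04 in WT(-). MAN6 (AT5G01930), an endo-mannanase, was called in neither comparison and had 0.967 FPKM in CPL4RNAi(+), 1.49 in CPL4RNAi(-), 1.11 in WT(+) and 0.457 in WT(-).

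**Figure D3:**
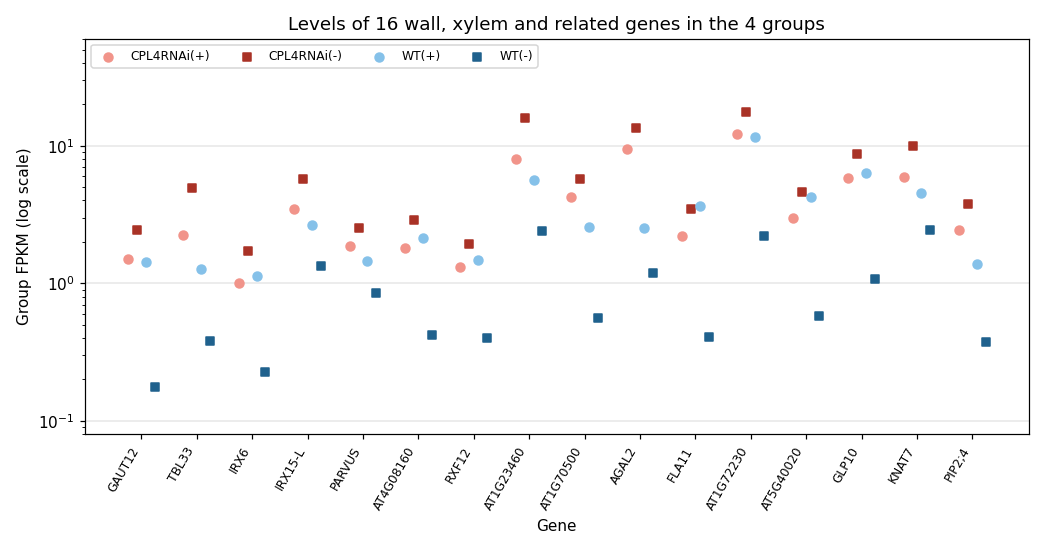
Group FPKM on a log scale of 16 wall, xylem and related genes, with CPL4RNAi(+), CPL4RNAi(-), WT(+) and WT(-) from left to right at each gene and 1 deposited value per group. WT(-) is the lowest of the 4 for each gene shown, and CPL4RNAi(-) the highest except at FLA11, where WT(+) is at 3.62 and CPL4RNAi(-) at 3.46.

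Proteins of the wall and the cell surface formed the largest named role, with 14 members, of which 10 were called in both comparisons. Of all 80 genes, chosen on these same folds, 35 were, and of all genes tested in both comparisons 0.548% were. FLA11 (AT5G03170), a fasciclin-like arabinogalactan protein of secondary walls, stood at 2.19 FPKM in CPL4RNAi(+), 3.46 in CPL4RNAi(-), 3.62 in WT(+) and 0.404 in WT(-). Its wild-type effect of 3.17 had an SE of 2.45, and its effect in CPL4RNAi was -0.66 (SE 0.61), so neither was called. GLP10 (AT3G62020), a germin-like protein, had 5.86 FPKM in CPL4RNAi(+), 8.65 in CPL4RNAi(-), 6.30 in WT(+) and 1.07 in WT(-), again with a wide wild-type error (2.56, SE 2.02). AT1G72230, a cupredoxin, was measured more firmly. It had 12.2 FPKM in CPL4RNAi(+), 17.5 in CPL4RNAi(-), 11.6 in WT(+) and 2.22 in WT(-), with effects of -0.52 in CPL4RNAi (SE 0.15) and 2.39 in wild type (SE at most 0.59). AT5G40020, a thaumatin-like protein, had 2.99 FPKM in CPL4RNAi(+), 4.60 in CPL4RNAi(-), 4.28 in WT(+) and 0.578 in WT(-).

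The wall and surface proteins with the highest levels had another order of groups. GRP9 (AT2G05440), a glycine-rich protein, had 69.3 FPKM in CPL4RNAi(+), 102 in CPL4RNAi(-), 297 in WT(+) and 174 in WT(-). AT5G05960, of the lipid transfer protein superfamily, had 17.7 FPKM in CPL4RNAi(+), 35.3 in CPL4RNAi(-), 51.4 in WT(+) and 28.3 in WT(-). For both genes WT(+) was the highest group and CPL4RNAi(+) the lowest, and both were called in both cytokinin comparisons. AT5G13900, of the same superfamily, followed the commoner order, with 12.5 FPKM in CPL4RNAi(+), 17.7 in CPL4RNAi(-), 6.54 in WT(+) and 3.80 in WT(-). Other abundant members also had WT(-) lowest and CPL4RNAi(-) highest, namely AT1G72230 (above) and, outside this role, RALF1 and AT5G05365 (both below). RALF1, at 79.4 FPKM in CPL4RNAi(-), stood above AT5G05960 in level.

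GRP9 and AT5G05960 were 2 of the 15 genes lowest in CPL4RNAi(+). The wall and surface proteins held 5 of the 15, which also include MMP (AT1G70170), a matrix metalloproteinase. MMP had 4.52 FPKM in CPL4RNAi(+), 6.87 in CPL4RNAi(-), 9.78 in WT(+) and 5.94 in WT(-). None of the 16 genes for xylan, cellulose and wall trimming was among the 15.

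Signalling genes numbered 10, and each was lowest in WT(-) and highest in CPL4RNAi(-). RALF1 (AT1G02900), a secreted peptide that makes the cell exterior more alkaline, was the most abundant, with 58.1 FPKM in CPL4RNAi(+), 79.4 in CPL4RNAi(-), 39.2 in WT(+) and 24.7 in WT(-). Its effects were -0.45 in CPL4RNAi (SE 0.12) and 0.66 in wild type (SE at most 0.16). AT1G79620, a leucine-rich repeat protein kinase, had 4.98 FPKM in CPL4RNAi(+), 7.88 in CPL4RNAi(-), 2.21 in WT(+) and 0.579 in WT(-), and was called in all 4 comparisons of the groups. GASA6 (AT1G74670), a gibberellin-regulated secreted peptide, had 2.83 FPKM in CPL4RNAi(+), 3.999 in CPL4RNAi(-), 2.90 in WT(+) and 0.664 in WT(-).

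The largest difference between the cytokinin effects, -5.20, belonged to AT5G60650, which RefSeq calls a proline-rich receptor-like kinase. It stood at 2.75 FPKM in CPL4RNAi(+), 7.32 in CPL4RNAi(-), 1.70 in WT(+) and 0.124 in WT(-). The wild-type effect of 3.78 rests on that last, near-zero level and had an SE of 3.24, while the fall in CPL4RNAi, -1.41 (SE at most 0.35), was called. The next gene along chromosome 5 is PIP2;4 (AT5G60660), an aquaporin of the plasma membrane, 569 bases away on the same strand and with no gene between. PIP2;4 had 2.44 FPKM in CPL4RNAi(+), 3.79 in CPL4RNAi(-), 1.38 in WT(+) and 0.375 in WT(-), and was called in both cytokinin comparisons. No other members were next to each other on a chromosome.

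Transcription factors with an established symbol were few. KNAT7 (AT1G62990, also IRX11), a homeobox protein that acts in secondary wall formation, had 5.90 FPKM in CPL4RNAi(+), 10.0 in CPL4RNAi(-), 4.56 in WT(+) and 2.46 in WT(-). It was called in both comparisons, at -0.76 in CPL4RNAi (SE at most 0.19) and 0.89 in wild type (SE 0.23). MIF3 (AT1G18835), a mini zinc finger protein, had the lowest CPL4RNAi ratio of the 80, with 0.989 FPKM in CPL4RNAi(+), 6.54 in CPL4RNAi(-), 1.80 in WT(+) and 1.07 in WT(-). Its log2 difference of -2.72 in CPL4RNAi had an SE of 1.40 and was not called. Among other named members, AT5G05365, of a heavy metal transport superfamily, had 21.2 FPKM in CPL4RNAi(+), 35.5 in CPL4RNAi(-), 24.7 in WT(+) and 15.3 in WT(-). AT1G26390, an FAD-binding enzyme of the berberine bridge type, was highest in WT(+), with 8.06 FPKM in CPL4RNAi(+), 11.8 in CPL4RNAi(-), 16.5 in WT(+) and 7.70 in WT(-). AT4G27435, which RefSeq names fiber (DUF1218), had 4.12 FPKM in CPL4RNAi(+), 5.62 in CPL4RNAi(-), 3.16 in WT(+) and 0.967 in WT(-).

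The 80 genes include 4 non-coding ones, and 1 of these was called, in CPL4RNAi alone. The precursor of miR159a (AT1G73687) had 3.52 FPKM in CPL4RNAi(+), 4.89 in CPL4RNAi(-), 2.99 in WT(+) and 1.63 in WT(-). The wild-type comparison of this gene was not tested by the authors, and its effect in CPL4RNAi was -0.48 (SE 0.58). The mature miRNA, which is known to target MYB factors of the GAMYB type, is shown because it works by its sequence. It is read from RefSeq's TAIR10.1 at chr1:27713234-27713254, minus strand, with the seed in capitals, and its own level was not measured here.
ath-miR159a: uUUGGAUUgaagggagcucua

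The remaining members are enzymes of other kinds and genes of other or no known role. Of 9 other enzymes 5 were called in both comparisons, against 35 of all 80 genes, and their levels were 1.09 to 13.8 FPKM in CPL4RNAi(-). The top of that range was ALDH2B7 (AT1G23800), an aldehyde dehydrogenase, with 7.93 FPKM in CPL4RNAi(+), 13.8 in CPL4RNAi(-), 5.13 in WT(+) and 3.16 in WT(-). Of 21 genes of other or no known role 1 was called in both, AT3G52900, and their levels ran from 1.02 to 17.4 FPKM in CPL4RNAi(-). In this last set 15 of 21 were lowest in WT(-) and 11 were highest in CPL4RNAi(-).

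The 12 genes set aside by name met the same 2 ratios, so their pattern was chosen as well. Their median wild-type ratio was steeper. The cytokinin effect of the 12 had a median of -0.70 in CPL4RNAi (-1.06 to -0.54) and 2.28 in wild type (0.62 to 2.89). In each genotype 11 of 12 were called, where 8.88% of all tested genes were called lower in CPL4RNAi and 6.58% higher in wild type. The difference between the effects had a median of -1.77 over the 80 genes (-5.20 to -1.12) and -3.15 over the 12 (-3.57 to -1.18).

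Of 31 secondary wall polysaccharide genes listed for this work, 12 met both ratios, 6 of them members and 6 set aside. Among those measured, 13 of 29 tested were called lower with cytokinin in CPL4RNAi and 0 higher, where 8.88% and 8.42% of all tested genes were. In wild type 12 of 25 were called higher and 0 lower, where 6.58% and 3.71% were. The genes tested include the 12 that the rule chose for these directions. Listed genes outside the 80 that moved the same way but missed the FPKM minimum included TBL3 and TBL34, relatives of TBL33, and GUX2, which adds glucuronic acid to xylan. TBL3 had 2.41 FPKM in CPL4RNAi(+), 4.12 in CPL4RNAi(-), 0.984 in WT(+) and 0.256 in WT(-), and all 3 genes were called in both comparisons. IRX15 and IRX14-L also moved the same way and missed the minimum, at 0.646 and 0.594 FPKM in WT(+). Their wild-type comparison was not tested by the authors. Other listed xylan genes met the FPKM minimum but missed a ratio or both, among them FRA8, GXM1 and IRX14. FRA8, a further enzyme of the xylan reducing end, was lowest in CPL4RNAi(+), with 4.58 FPKM in CPL4RNAi(+), 8.39 in CPL4RNAi(-), 7.46 in WT(+) and 8.47 in WT(-). It was called lower with cytokinin in CPL4RNAi, at -0.87 (SE at most 0.22), and was not called in wild type, at -0.18 (SE 0.14). GXM1, which adds methyl groups to the glucuronic acid of xylan, had 7.93 FPKM in CPL4RNAi(+), 10.0 in CPL4RNAi(-), 5.96 in WT(+) and 3.95 in WT(-). Its effect was called in wild type, at 0.59 (SE 0.19), and not in CPL4RNAi, at -0.34 (SE 0.15). IRX14 was called in neither cytokinin comparison. It had 14.003 FPKM in CPL4RNAi(+), 14.33 in CPL4RNAi(-), 12.009 in WT(+) and 11.7 in WT(-), with log2 effects of -0.03 in CPL4RNAi (SE 0.12) and 0.03 in wild type (SE 0.12). IRX10, IRX9-L and RWA1 had no such call either.

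Of 30 xylem regulators 3 met both ratios, namely KNAT7 and, among the genes set aside, VND3 and VND6. In CPL4RNAi 11 of 23 tested were called lower with cytokinin and 1 higher, where 8.88% and 8.42% of all tested genes were. In wild type 5 of 18 were called higher and 0 lower, where 6.58% and 3.71% were. The genes tested include the 3 that the rule chose for these directions. VND7 had 4.04 FPKM in CPL4RNAi(+), 6.03 in CPL4RNAi(-), 0.832 in WT(+) and 0.338 in WT(-), and MYB46 had 1.59 FPKM in CPL4RNAi(+), 2.87 in CPL4RNAi(-), 0.631 in WT(+) and 0.356 in WT(-), so that both missed the minimum in WT(+). VND1 went another way, with 21.8 FPKM in CPL4RNAi(+), 15.7 in CPL4RNAi(-), 8.04 in WT(+) and 4.79 in WT(-), and was called higher in both genotypes.

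None of 25 lignin genes met both ratios, where 0.52% of all genes at the FPKM minimum did. In wild type 17 of 23 tested were called higher and 2 lower, where 6.58% and 3.71% of all tested genes were. In CPL4RNAi 8 were called lower and 4 higher, where 8.88% and 8.42% were. Of 17 laccases 2 met both ratios, and LAC17 had 2.47 FPKM in CPL4RNAi(+), 2.56 in CPL4RNAi(-), 3.35 in WT(+) and 0.292 in WT(-). Of 11 genes listed under xylem cell death only the set-aside XCP1 and XCP2 met both. TED6, placed on that list with no role in cell death shown here, had 11.7 FPKM in CPL4RNAi(+), 14.3 in CPL4RNAi(-), 11.1 in WT(+) and 2.36 in WT(-).

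Of 12 genes for microtubules and wall patterning none met both ratios, where 0.52% of all genes at the FPKM minimum did. In CPL4RNAi 2 of 12 tested were called lower and 1 higher, where 8.88% and 8.42% of all tested genes were. In wild type 3 of 9 were called higher and 0 lower, where 6.58% and 3.71% were.

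Markers of other cell types held no member. Only 0.52% of all genes at the FPKM minimum met both ratios, so a count of 0 in lists this short says little. The summed level of 19 early xylem and cambium genes was 1290 FPKM in CPL4RNAi(+), 1378 in CPL4RNAi(-), 1658 in WT(+) and 1481 in WT(-). A few abundant genes can rule such a sum. The median CPL4RNAi to WT log2 difference over the 19 was positive, at 0.40 without cytokinin and 0.14 with it. Without cytokinin 11 were called higher and 6 lower, against 22.5% and 21.5% of all tested genes. With cytokinin 7 were called higher and 5 lower, against 24.7% in each direction. PXY, a cambium receptor, had 56.9 FPKM in CPL4RNAi(+), 59.5 in CPL4RNAi(-), 29.3 in WT(+) and 10.7 in WT(-). The sum over 10 phloem genes was 79.0 in CPL4RNAi(+), 60.1 in CPL4RNAi(-), 147 in WT(+) and 129 in WT(-), and that over 17 genes of root endodermis, epidermis and cap was 145 in CPL4RNAi(+), 221 in CPL4RNAi(-), 55.5 in WT(+) and 80.5 in WT(-). For 13 shoot epidermis and photosynthesis genes it was 25.5 in CPL4RNAi(+), 27.5 in CPL4RNAi(-), 37.2 in WT(+) and 49.1 in WT(-), with MUTE and FAMA, which define stomatal precursors, listed at 0 in every group. The type-A response regulators, early cytokinin targets, were called higher in wild type in 8 of 9 tested and in CPL4RNAi in 7 of 8. The part that these cell types play in the levels of the 80 genes was not tested.

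The median genotype difference was far from 0 without cytokinin and near 0 with it, where the signs were mixed. The rule itself makes this difference lower with cytokinin than without it in every gene. The CPL4RNAi(-) to WT(-) difference had a median of 1.74 over the 80 genes (-0.89 to 5.89), and 77 genes were positive. It was called higher for 51, where 22.5% of all tested genes were, and lower for 1, GRP9, where 21.5% were. The CPL4RNAi(+) to WT(+) difference had a median of -0.13 (-2.31 to 1.91), with 35 genes positive and 45 negative. It was called higher for 13 and lower for 12, where 24.7% of all tested genes were called in each direction. Differences within 0.5 of 0 were seen in 34 genes with cytokinin and in 8 without it. With cytokinin 4 genes were higher in CPL4RNAi by 2-fold or more and 16 lower, and without it 64 were higher and 0 lower. The difference was positive in both media for 35 genes and negative in both for 3, and it was positive without and negative with cytokinin for 42.

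**Figure D4:**
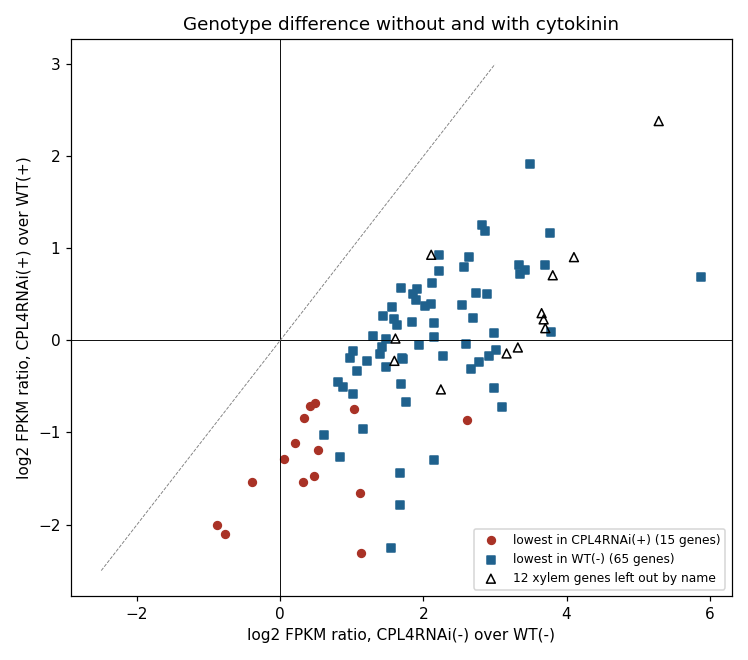
Log2 FPKM ratio of CPL4RNAi(+) over WT(+) (vertical axis) against that of CPL4RNAi(-) over WT(-) (horizontal axis) for genes lowest in CPL4RNAi(+) (red circles, 15), genes lowest in WT(-) (blue squares, 65) and the 12 genes set aside (open triangles). The dashed line marks equal differences, and the rule itself places every gene to its right. The 80 genes reach 5.89 along the horizontal axis and 1.91 along the vertical one.

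By identifier 78 of the 80 genes were found in RefSeq's TAIR10.1 annotation, 74 of them protein-coding, 3 non-coding and 1 a miRNA precursor. Chromosome 1 held 34 of the 78 (43.6%), against 26.1% of all genes at the FPKM minimum. The protein-coding members had a median of 2 exons against 5, and 25 of 74 (33.8%) had a single exon against 14.3%. Of the 80, 19 share a deposited locus with another feature. In 16 of 18 such pairs found in RefSeq the features lie on opposite strands, and it is not given in the sources used here whether strand was used in assigning reads. The 19 were called in both cytokinin comparisons in 5 cases and had a median implied SE of 0.698 in wild type. Among the other 61 genes 30 were called in both, and the median SE was 0.440. FLA11, GAUT12, IRX15-L, GLP10, AGAL2 and BGAL8 are among the 19, so their levels are uncertain to that extent. GAUT12 overlaps AT5G54680 by 51 bases, and AT5G54680 had 74.8 FPKM in CPL4RNAi(+), 77.1 in CPL4RNAi(-), 75.9 in WT(+) and 79.4 in WT(-).

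Promoters were searched on both strands from 250 bases before to 50 after the RefSeq gene start for 5 motifs linked to xylem, auxin or cytokinin. The tracheary element-regulating element TERE, which reads CTT, any base, AAAGC, any base and A, and was described in genes of xylem vessel formation, was found in 3 of 74 member promoters (4.05%), in 2 of 12 set-aside promoters (16.7%) and in 0.485% of promoters at the FPKM minimum. The secondary wall NAC-binding element SNBE, a loose motif that can overlap TERE, was found in 59.5%, 75% and 47.9% of them. AC elements, spelled ACCTACC in 1 form, ACCAACC in another and ACCTAAC in the last, were found in 12.2%, 0% and 7.39%, the auxin response element TGTCTC in 20.3%, 41.7% and 13.3%, and AAGATNTT, a motif of type-B response regulators, in 13.5%, 0% and 13.4%. A match describes letters in a window and does not show that a factor binds there.

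The windows that hold TERE are shown because this motif was rare elsewhere, and GAUT12 because it was the xylan gene of the set with an AC element. All are read from RefSeq's TAIR10.1 on the gene's own strand, with the motif in capitals. TERE began 204 bases before the start of FLA11 (chr5:753821-753891, minus strand), 22 bases before that of AT1G70500 (chr1:26568872-26568923, minus strand) and, in reverse, 230 bases before that of AT2G44300 (chr2:18308684-18308744, minus strand). In the set-aside genes it began 75 bases before the start of XCP1 (chr4:16810377-16810447, plus strand) and 20 bases before that of CESA4 (chr5:17714340-17714389, plus strand). The AC element of GAUT12 began 225 bases before its start (chr5:22222157-22222218, minus strand).
FLA11: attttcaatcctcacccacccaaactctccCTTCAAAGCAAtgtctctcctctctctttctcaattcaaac
AT1G70500: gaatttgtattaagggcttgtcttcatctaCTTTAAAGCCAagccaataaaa
AT2G44300: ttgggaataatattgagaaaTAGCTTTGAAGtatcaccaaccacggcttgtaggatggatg
XCP1: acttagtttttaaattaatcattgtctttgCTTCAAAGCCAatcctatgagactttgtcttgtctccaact
CESA4: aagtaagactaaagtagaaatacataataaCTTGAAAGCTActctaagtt
GAUT12: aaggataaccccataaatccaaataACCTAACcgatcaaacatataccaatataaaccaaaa
The members FLA11 and AT1G70500, described above, were steep in wild type. AT2G44300, of the lipid transfer protein superfamily, had 5.31 FPKM in CPL4RNAi(+), 7.86 in CPL4RNAi(-), 8.53 in WT(+) and 5.61 in WT(-), a wild-type ratio of 1.52.

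The limits of the rule fell among genes of like behaviour. Just inside the wild-type ratio of 1.5 lay AT3G05640, a protein phosphatase 2C, at 1.51, AT2G44300 at 1.52 and AUF2, an F-box protein, at 1.52. Just outside lay the precursor of miR162a at 1.49, AT5G43725 at 1.48 and AT2G45750 at 1.47. Just inside the CPL4RNAi ratio of 0.75 lay AT1G70500 at 0.743, PARVUS at 0.735 and the non-coding AT1G70581 at 0.734, and just outside lay AT5G44550 at 0.753, AT3G25640 at 0.760 and AT5G46115 at 0.762. AT5G44550 was more abundant than most members, with 98.5 FPKM in CPL4RNAi(+), 131 in CPL4RNAi(-), 25.0 in WT(+) and 13.8 in WT(-).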

How the data were processed

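Group expression in FPKM was taken from the authors' deposited table, which also holds a p-value and a q-value for each of 6 pairwise comparisons of the 4 groups and no values per replicate, per the file headers. Per the submitters' processing notes, the authors used bcl2fastq 2.17.1.14, TopHat2 2.0.14, Cuffdiff 2.2.1.3 and TAIR10, and options are not given in the sources used here. The column names W and C4 were read as wild type and CPL4RNAi from the sample titles. The replicates are described as biological, but nothing says that they were separate cultures, so the authors' p-values may measure technical spread alone.

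Ratios and log2 folds were computed from the FPKM with no pseudocount. Called means a deposited q-value of 0.05 or less. The SE of a log2 fold is its size divided by the normal quantile that matches the deposited p-value. At the floor of 5e-05 it is at most 0.247 of the fold. It reflects the variance that Cuffdiff modelled. The genes, 11 lists of 195 genes, the roles and the motifs were chosen with earlier results of these data known. Named were members on a list, the 15 with the largest difference of effects among those with 5 FPKM or more in CPL4RNAi(-), the 6 most abundant, transcription factors with a symbol, 3 genes on each side of each ratio, and CPL4. Other named genes illustrate a role and were chosen after their values were seen. Gene positions, products and sequences are RefSeq's for TAIR10.1, matched by identifier. Scripts ran in Python 3.11.15 with SciPy 1.17.1, pandas 2.3.3, matplotlib 3.10.9 and numpy 2.4.6, and the fold, SE and rule steps were checked on simulated data. The alternatives covered the ratio limits, the FPKM minimum, a pseudocount of 1, recentring, protein-coding genes alone, the q-value limit, adjustment within a comparison, keeping the 12 genes set aside and the promoter window.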

Additional observations from a re-analysis of the deposited data

How the results depend on the processing

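The number of genes depended on the limits chosen. It was 80 as given, 17 with an FPKM minimum of 5, 37 with a pseudocount of 1, 51 with the ratio 1.5 and its inverse, 8 with ratios of 2 and 0.5, and 35 when a q-value of 0.05 or less was also asked for in both cytokinin comparisons. It stayed within 1.5 times when folds were recentred (81 genes, 79 of them among the 80), when protein-coding genes alone were used (74) and when the 12 genes set aside were kept (92). At a q-value of 0.01 or less, 25 members were called lower in CPL4RNAi and 27 higher in wild type, instead of 41 and 43. With adjustment within each comparison, 31 were called lower in CPL4RNAi and 29 higher in wild type. Of the secondary wall polysaccharide list, 12 genes met both ratios as given, 1 with an FPKM minimum of 5 and 2 with ratios of 2 and 0.5. Of the xylem regulators 3 met them as given and 0 under either of these settings. Of the laccases 2 met them as given, 1 with the FPKM minimum of 5, 1 with the pseudocount, 1 with the ratio 1.5 and its inverse, and 0 with ratios of 2 and 0.5. Of the genes listed under xylem cell death 2 met them as given, 1 with the ratio 1.5 and its inverse and 0 with ratios of 2 and 0.5. Fewer genes remain under each of these settings because each asks for more. The median folds kept their direction with the pseudocount and after recentring. With the promoter window ended at the gene start, the motif shares of the 80 and of the 12 set-aside genes stayed within their 95% Wilson intervals. Those of all promoters at the FPKM minimum fell to 0.391% for TERE, 42% for SNBE, 6.13% for AC elements, 10.4% for the auxin response element and 11.5% for the type-B motif. No paired analysis was possible because the table holds no values per replicate, and for the same reason no replicate could be left out and no library could be examined on its own. Of the 80 genes, 52 stayed under 5 FPKM in every group. Whether low abundance alone accounts for their wide errors was not tested.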
